A study of Rattus norvegicus with 8 samples.

Results

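The aryl hydrocarbon receptor and its targets were followed through 7 genes: the receptor Ahr, its partner Arnt, its repressor Ahrr, the cytochrome P450 genes Cyp1a1, Cyp1a2 and Cyp1b1, and Tiparp. A probe belonged to the group where the gene name printed for it in the scanner files was one of these 7 symbols, and each gene had 1 probe, so 7 genes were taken of 26181 on the array. The genes were chosen by measured values: the group was put together because the Cyp1a1 level was low in all 3 colitis groups of these data. The levels of the 7 genes in colitis against healthy tissue are therefore given as a description, without a test, and only the comparisons between diets were tested.

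Colons of female rats of the outbred Wistar strain, aged 14 weeks, were profiled on 1-colour arrays, with 2 arrays for each of 4 groups. ALA colitis rats were fed alpha-linolenic acid, a plant n-3 fatty acid, fish oil colitis rats fish oil, a source of long-chain n-3 fatty acids, and n-6 colitis rats sunflower oil, a source of n-6 fatty acids, each for 8 weeks. All 3 of these groups received 5% DSS (dextran sulfate sodium) for 7 days, a sugar polymer used to damage the gut epithelium. Healthy rats had the sunflower oil diet and no DSS, so they shared their oil with the n-6 colitis group and with neither n-3 group. RNA of 6 rats was pooled for the arrays, out of 10 rats in each colitis group and 6 in the healthy group. Both healthy arrays thus carried the same rats, and whether the 2 arrays of a colitis group shared a pool is not stated. A p-value here measures only the spread between arrays, which may be technical, and their number limits the precision. All 8 arrays lay on 1 slide, with each group in neighbouring positions, so that slide position and group cannot be told apart.

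The aryl hydrocarbon receptor is a transcription factor that waits in the cytosol with heat shock proteins until a small molecule binds it. In the gut such molecules come from plant food, from microbial breakdown of tryptophan and from pollutants. The bound receptor enters the nucleus, pairs with Arnt and switches on genes whose control regions hold the xenobiotic response element, with Cyp1a1 as its classic target. Ahrr and Tiparp are targets that in turn restrain the receptor, and the CYP1 enzymes can break down the molecules that activate it. In the intestine the pathway is known for its roles in barrier upkeep and in lymphocytes that make interleukin-22.

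A level below is the log2 of the processed signal after the array's own 75th percentile, on the same scale, was subtracted. A level of 0 is thus that of a fairly bright probe. Whether a probe stood well above background on an array is the scanner software's own call on its spots, with at least 50% of usable spots required. Levels of different probes are not comparable, since each probe binds with its own strength.

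The identity of each measurement rests on 1 probe of 60 bases. The first 30 bases of each are shown as the scanner files give them, because every value below is the brightness of these spots.
Cyp1a1 probe: caatagatttagataattcgcttagtgtaa
Cyp1a2 probe: ttttcctttctttttaaataacagcttttt
Cyp1b1 probe: taaaatccatgtgtctctcagagagtccat
Ahrr probe: atgcggtggtttgtactgcattggcaaaac
Tiparp probe: gtgaatgttctgttgcctcaattcagagca
Ahr probe: aatgaagcctactcggcagacttgagcagc
Arnt probe: cacggcctacattgtctaacacaatccaga

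On the rn4 build used in the files, the Cyp1a1 probe lies at chr8:61468133-61468192 and the Cyp1a2 probe at chr8:61439236-61439295, so the 2 genes are neighbours. The Cyp1b1 probe lies at chr6:2548567-2548626 and the Ahr probe at chr6:54205172-54205231. The Ahrr probe lies at chr1:29894853-29894912. The Tiparp probe lies at chr2:155338483-155338542 and the Arnt probe at chr2:190385287-190385346. Cyp1a1 was spotted 10 times on each array, Ahr, Ahrr, Cyp1a2 and Cyp1b1 2 times, and Arnt and Tiparp 1 time, so the Cyp1a1 values rest on the most spots.

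The promoter table from RefSeq (GRCr8 build, 250 bases before to 50 after each gene start) held 6 of the 7 genes, all but Cyp1a1. They were searched for the core of the xenobiotic response element, GCGTG, and for the longer TNGCGTG, which contains it, on both strands. The promoters of Ahrr, Cyp1b1 and Tiparp, targets of the receptor with a match, are shown over the 250 bases before the start, with GCGTG, or CACGC where it reads on the other strand, in capitals.
Ahrr, chr1:30821969-30822218, + strand: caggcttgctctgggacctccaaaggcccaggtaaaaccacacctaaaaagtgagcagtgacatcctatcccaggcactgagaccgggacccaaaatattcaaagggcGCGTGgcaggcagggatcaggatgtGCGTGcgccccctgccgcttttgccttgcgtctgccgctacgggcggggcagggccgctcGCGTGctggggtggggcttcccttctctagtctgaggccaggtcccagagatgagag
Cyp1b1, chr6:21094315-21094564, + strand: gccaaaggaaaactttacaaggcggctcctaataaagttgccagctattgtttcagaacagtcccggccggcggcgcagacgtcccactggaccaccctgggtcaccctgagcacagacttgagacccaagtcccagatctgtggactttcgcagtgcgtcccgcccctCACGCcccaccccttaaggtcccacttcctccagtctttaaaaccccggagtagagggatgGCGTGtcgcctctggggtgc
Tiparp, chr2:152063519-152063768, + strand: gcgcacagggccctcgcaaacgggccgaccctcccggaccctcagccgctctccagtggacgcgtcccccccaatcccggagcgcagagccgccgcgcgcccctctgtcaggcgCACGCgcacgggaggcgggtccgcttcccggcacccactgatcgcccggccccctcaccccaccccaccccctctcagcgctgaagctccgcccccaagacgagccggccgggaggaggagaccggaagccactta

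Ahrr had 3 matches to GCGTG, at 142, 117 and 57 bases before the start, and the last of them was also a TNGCGTG. Cyp1b1 had 2, of which the one 20 bases before the start was also a TNGCGTG. Tiparp and Arnt had 1 each, and Ahr and Cyp1a2 had 0. Among all 27457 promoters of 300 bases, 31.1% held at least 1 GCGTG, 10.8% at least 2 and 3.74% at least 3, and 5.12% held TNGCGTG. These matches describe letters in a short window and do not show that the receptor binds there.

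Cyp1a1, which oxidises polycyclic aromatic compounds and other receptor ligands, was seen in healthy colon and was not well above background on any of the 6 colitis arrays. Its level was -5.25 and -6.14 in ALA colitis, -5.66 and -5.44 in fish oil colitis, and -6.86 and -6.22 in n-6 colitis, against -1.86 and -2.03 in healthy colon. All 6 colitis arrays lay below both healthy arrays, and the gap between the lowest healthy and the highest colitis array was wider than the range among the colitis arrays.

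For processed intensity, before any scaling between arrays, spots were averaged on the log2 scale and the result turned back to units. Cyp1a1 then had 7.21 and 4.94 units in ALA, 2.29 and 7.47 in fish oil and 3.47 and 3.20 in n-6 colitis. The healthy arrays had 83.9 and 108 units. No usable colitis spot was well above background, whereas 9 of 9 on healthy replicate 1 and 10 of 10 on healthy replicate 2 were. The brightest usable colitis spot, on ALA replicate 1, reached 14.2 units, and the dimmest usable healthy spot 79.7 units. The usable spots of the groups thus did not overlap even before scaling. Spots marked as outliers were left out on healthy replicate 1, ALA replicate 2, fish oil replicate 2 and n-6 replicate 1. Their intensities are not given here.

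**Figure D1:**
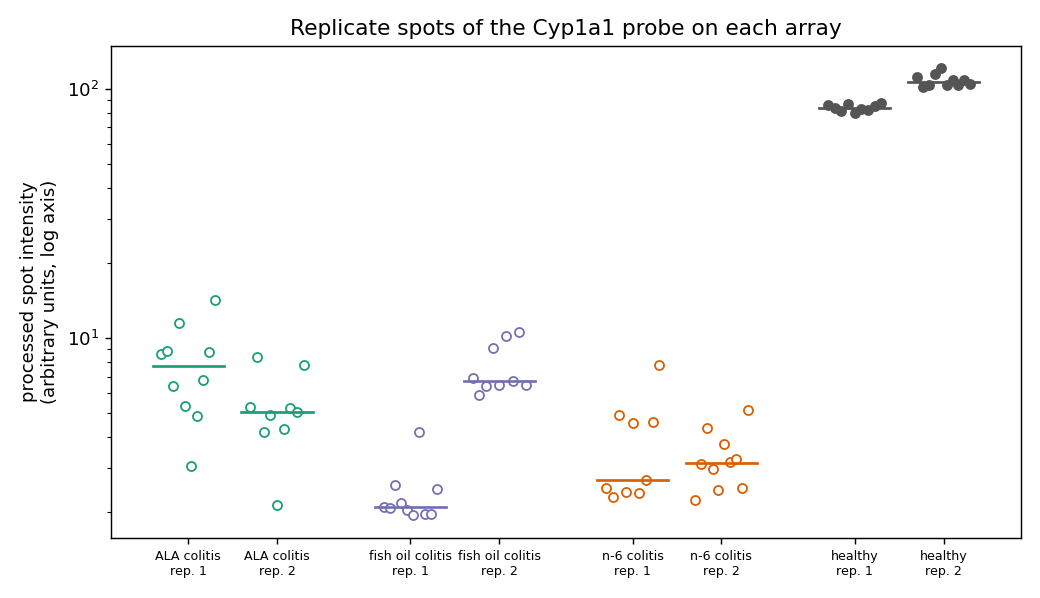
Processed intensity (arbitrary units, log axis) of each usable spot of the Cyp1a1 probe on the 8 arrays, with filled points well above background, open points not, and a bar at the median of each array. Usable colitis spots reach at most 14.2 units, and usable healthy spots start at 79.7 units.

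Since the colitis signals lie at background, the fold is given as a lower bound. For each colitis array the probe's own level was used, or the lowest level of any probe well above background where that was higher, and the mean of these was set against the healthy mean. By this rule Cyp1a1 was at least 13.4-fold lower in ALA colitis, at least 8.72-fold lower in fish oil colitis and at least 15.6-fold lower in n-6 colitis than in healthy colon. In ALA colitis the probe's own levels were used on both arrays, so 13.4 is simply the measured fold. The bounds leave out the spread between arrays and the choice of processing, and some alternatives given at the end had smaller differences. The measured differences in log2 level were -3.75, -3.61 and -4.60, with an SE of 0.40 each. The lower bound for fish oil was set by fish oil replicate 1, the dimmest array, whose 75th percentile was 6.85 on the log2 intensity scale against 7.90 to 8.78 on the other arrays. It had 16396 probes well above background, against 18140 to 21273 on the others.

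Of all 18165 genes tested, 3 had a larger measured fall than Cyp1a1 in ALA colitis, 3 in fish oil colitis and 12 in n-6 colitis. Cyp1a1 passed the filter on low signal only through the healthy group, so it had to differ from that group, and these ranks describe the values that chose it. In whole-tissue RNA, fewer cells of a type and less RNA per cell cannot be told apart. Summed levels of 10 epithelial markers, all well above background on all 8 arrays, were 354 to 510 in ALA colitis, 581 to 701 in fish oil colitis and 255 to 659 in n-6 colitis, against 449 to 492 in healthy colon, on a linear scale where the 75th percentile of an array is 1. Those of 9 markers of absorptive colonocytes were 340 to 361, 390 to 642 and 152 to 501 in the same 3 colitis groups, against 432 to 523 in healthy colon. Such sums are carried by the brightest genes, among them Krt20, Cldn3 and Guca2a. Counted gene by gene, 6 of 10 epithelial markers were lower than healthy in ALA colitis (median log2 difference -0.076), 3 of 10 in fish oil colitis (0.37) and 8 of 10 in n-6 colitis (-0.45). Of the colonocyte markers, 8 of 9 were lower in ALA colitis (median -0.38), 5 of 9 in fish oil colitis (-0.13) and 8 of 9 in n-6 colitis (-1.34). Lower without overlap of the arrays were 3 of these 9 in ALA, 1 in fish oil and 5 in n-6 colitis. Of all genes 18.1%, 20.4% and 21.7% were so. In limma 0 of the 19 genes of both lists passed an adjusted p of 0.05 in the 3 comparisons. Of all genes 0%, 0% and 0.0385% passed there. Car1, a carbonic anhydrase of colonocytes that was picked out after its values were seen, had levels of 1.41 and 6.77 in ALA colitis, 7.38 and 5.35 in fish oil colitis and 0.67 and 6.01 in n-6 colitis, against 6.65 and 7.72 in healthy colon. Most colonocyte markers had lower means in ALA and n-6 colitis, where Cyp1a1 was lower too. The exception was Car4, which was higher than healthy by 0.55 in ALA and 0.40 in n-6 colitis. In fish oil colitis Cyp1a1 was also lower, while 5 of 9 colonocyte and 3 of 10 epithelial markers were. Among 8 goblet cell markers 3 were lower in ALA, 2 in fish oil and 3 in n-6 colitis. The part of cell makeup in the Cyp1a1 level was not tested.

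Cyp1a2 and Cyp1b1, the other CYP1 enzymes, were not well above background on any of the 8 arrays, so neither was tested and no fold is given. The signal of Cyp1a2 was 4.76 and 3.28 units in ALA colitis, 2.53 and 4.50 in fish oil colitis and 10.8 and 3.23 in n-6 colitis, against 4.31 and 3.33 in healthy colon. Its highest array was n-6 replicate 1, and the groups overlapped. The signal of Cyp1b1 was 4.15 and 2.20 units in ALA colitis, 2.26 and 2.30 in fish oil colitis and 2.36 and 2.36 in n-6 colitis, against 3.09 and 2.65 in healthy colon. The spread within the groups was as wide as that between them. Of the 3 CYP1 genes, Cyp1a1 alone was thus well above background in any group, and Cyp1a2, whose probe lies near it on chromosome 8, was not so even in healthy colon.

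**Figure D2:**
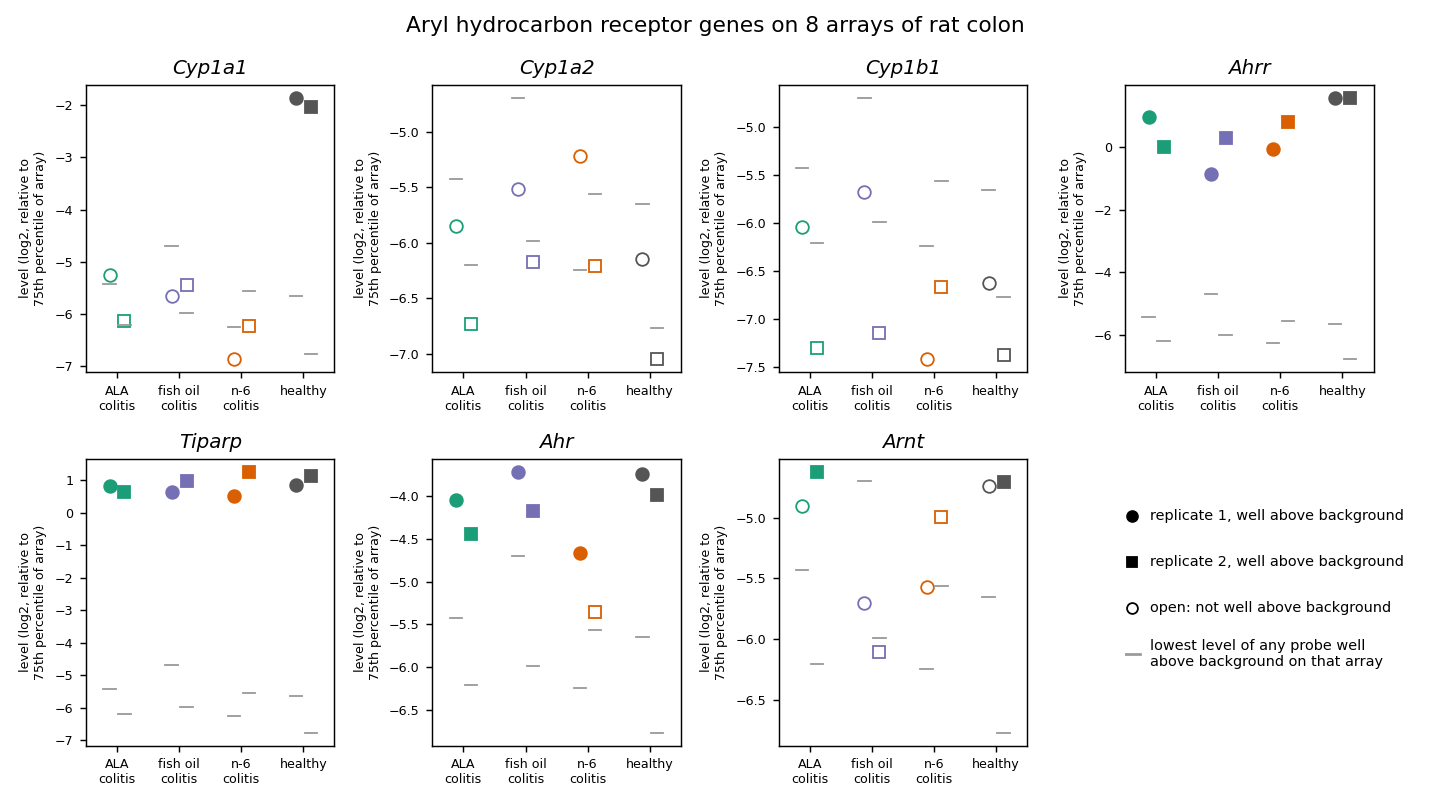
Log2 level of each of the 7 genes on the 8 arrays, by group (ALA colitis, fish oil colitis, n-6 colitis, healthy), with circles for replicate 1, squares for replicate 2, open symbols where the probe was not well above background, and a grey bar at the lowest level of any probe well above background on that array. Cyp1a1 and Ahrr are lower on all colitis arrays than on both healthy arrays, Tiparp stays between 0.51 and 1.26, and each panel has its own axis.

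Ahrr, which competes with the receptor for Arnt and represses its targets, was bright and was well above background on all 8 arrays. Its level was 0.96 and 0.021 in ALA colitis, -0.86 and 0.30 in fish oil colitis and -0.063 and 0.83 in n-6 colitis, against 1.57 and 1.58 in healthy colon. Both healthy arrays lay above all 6 colitis arrays, although the colitis pairs were spread wide and the healthy pair was tight. The differences from healthy in log2 level were -1.08 in ALA colitis (2.12-fold lower), -1.86 in fish oil colitis (3.62-fold lower) and -1.19 in n-6 colitis (2.29-fold lower), with an SE of 0.53 each.

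Fish oil replicate 1, the dimmest array, held the lowest Ahrr level. Without it the fish oil difference from healthy was -1.28. Among the colitis groups the order was ALA, n-6 and fish oil, and no neighbours in that order differed beyond their spread. In ALA against n-6 colitis the difference in log2 level was 0.11 (95% interval -1.15 to 1.37, limma adjusted p = 0.991), in fish oil against n-6 colitis -0.66 (-1.93 to 0.60, adjusted p = 0.581) and in ALA against fish oil colitis 0.77 (-0.49 to 2.03, adjusted p = 0.622). These intervals still hold changes of more than 1 log2 unit, so the test does not show that the diets act alike on Ahrr.

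Tiparp, an enzyme that attaches ADP-ribose to the receptor and restrains it, was well above background on all 8 arrays and showed no such pattern. Its level was 0.80 and 0.63 in ALA colitis, 0.65 and 0.98 in fish oil colitis and 0.51 and 1.26 in n-6 colitis, against 0.84 and 1.13 in healthy colon. Only the ALA arrays both lay below the healthy pair, and by little. The differences from healthy in log2 level were -0.27, -0.17 and -0.10 for ALA, fish oil and n-6 colitis, each smaller than its SE of 0.36. Between diets they were -0.17 for ALA against n-6 (95% interval -1.01 to 0.67), -0.072 for fish oil against n-6 (-0.91 to 0.77) and -0.096 for ALA against fish oil (-0.94 to 0.74), with limma adjusted p-values of 0.986, 0.933 and 0.933.

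Ahr itself was dim, and was well above background on 7 of 8 arrays. Its level was -4.04 and -4.44 in ALA colitis, -3.71 and -4.18 in fish oil colitis and -4.67 and -5.35 in n-6 colitis, against -3.73 and -3.98 in healthy colon. The array without a clear signal was n-6 replicate 2, and on fish oil replicate 1 the call rested on 1 of 2 spots. The n-6 arrays were the lowest of all, the ALA arrays lay just below the healthy pair, and the fish oil and healthy arrays overlapped.

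The Ahr differences from healthy in log2 level were -0.38 in ALA colitis, -0.086 in fish oil colitis and -1.15 in n-6 colitis, with an SE of 0.37 each. With normexp background correction, which shrinks the differences of dim probes, those of ALA and fish oil turned to 0.060 and 0.47 and that of n-6 was -0.095. Ahr was higher in both n-3 groups than in n-6 colitis without overlap of the arrays, by 1.07 in fish oil (95% interval 0.20 to 1.94, unadjusted p = 0.023, limma adjusted p = 0.410) and by 0.77 in ALA (-0.098 to 1.64, adjusted p = 0.872). Neither passed the threshold of 0.05. ALA against fish oil colitis gave -0.29 (-1.17 to 0.58, adjusted p = 0.781).

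Arnt, the partner that the receptor needs to bind DNA and that also serves the hypoxia-inducible factors, was near the limit of detection. It was well above background on 2 of 8 arrays, ALA replicate 2 and healthy replicate 2, and was not tested. Its level was -4.90 and -4.62 in ALA colitis, -5.70 and -6.10 in fish oil colitis and -5.57 and -5.00 in n-6 colitis, against -4.74 and -4.70 in healthy colon. The ALA and healthy arrays lay together, and those of fish oil and n-6 colitis lower. Replicate 1 of ALA colitis and of healthy colon was not well above background either. On fish oil replicate 1 the lowest level of any probe well above background was -4.70, near the healthy Arnt levels. No order among the groups is therefore read from Arnt.

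Of the 7 genes, 4 passed the filter on low signal (Cyp1a1, Ahrr, Tiparp and Ahr). All 4 had lower means in each colitis group than in healthy colon. The arrays did not overlap for 4 of 4 in ALA colitis, 2 of 4 in fish oil colitis and 3 of 4 in n-6 colitis, in each case on the lower side. Over all 18165 genes, 18.1%, 20.4% and 21.7% were lower without overlap in these 3 comparisons. Since these contrasts chose the group, and Cyp1a1 could not but differ, nothing is read from the counts.

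In the comparisons between diets, 0 of the 4 genes passed an adjusted p of 0.05 in limma. At an unadjusted p under 0.05 there were 0 in ALA against n-6, 2 in fish oil against n-6 (Ahr and Cyp1a1) and 0 in ALA against fish oil. Among all genes, 0.0275%, 0.0385% and 0% were called after adjustment and 5.8%, 12% and 9.6% before it. The arrays did not overlap for 2 of 4 in ALA against n-6, where 30% of all genes did not, for 2 of 4 in fish oil against n-6, where 46.6% did not, and for 0 of 4 in ALA against fish oil, where 45.7% did not. With 4 genes, of which Cyp1a1 was at background on all arrays compared here, no result about the group is read from these counts.

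Cyp1a1 gave log2 differences of 0.85 for ALA against n-6 (limma adjusted p = 0.872), 0.99 for fish oil against n-6 (adjusted p = 0.410) and -0.14 for ALA against fish oil (adjusted p = 0.909). These compare signals that are at background on every array involved, so no fold is given and no order among the colitis groups is read from them.

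**Figure D3:**
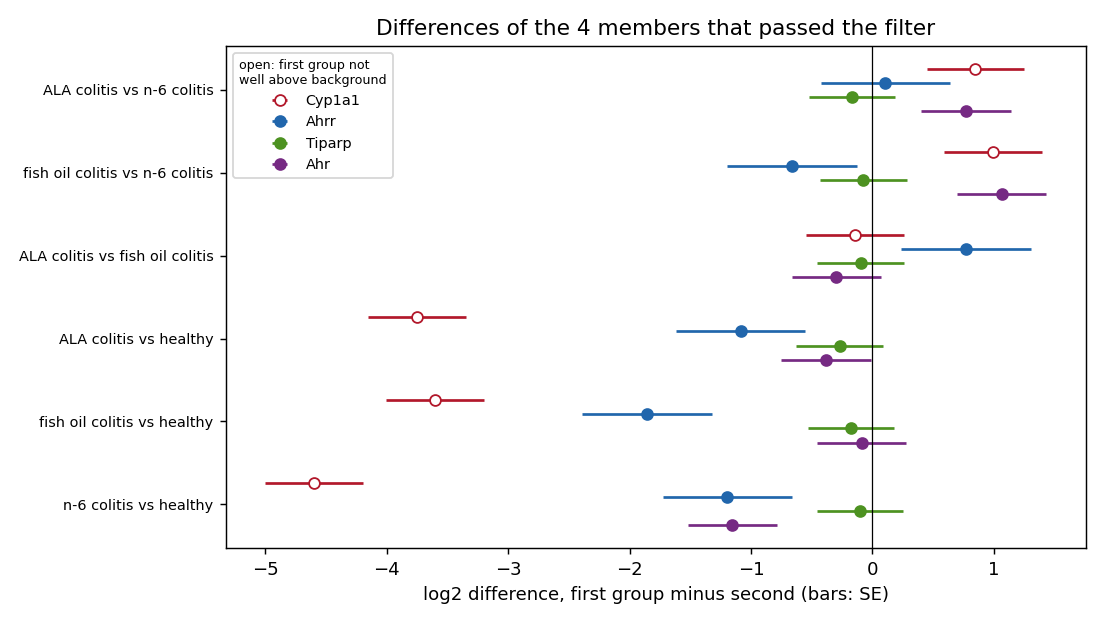
Log2 difference (horizontal axis, first group minus second, bars are the SE) of Cyp1a1, Ahrr, Tiparp and Ahr in the 6 comparisons, open where the first group was not well above background. Cyp1a1 lies between -4.60 and -3.61 in the 3 comparisons with healthy colon, and every difference between diets lies between -0.66 and 1.07.

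The genes around the receptor were followed through 6 lists with 74 genes, of which 52 passed the filter. In limma, 0 of the 52 passed an adjusted p of 0.05 in any of the 6 comparisons. At an unadjusted p under 0.05 there were 0 in ALA against n-6, 5 in fish oil against n-6 and 5 in ALA against fish oil. Of all genes 5.8%, 12% and 9.6% had such a p in these comparisons. Against healthy colon it was met by 6 of the 52 in ALA, 2 in fish oil and 10 in n-6 colitis. There 6.55%, 3.9% and 14.3% of all genes had such a p. After adjustment 0%, 0% and 0.0385% of all genes were called in the comparisons with healthy colon. The median log2 difference of the 52 genes ran from -0.019 to 0.21 over the 6 comparisons, and that of all genes from 0.0032 to 0.071. Genes named from a list are its 3 brightest unless stated.

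**Figure D4:**
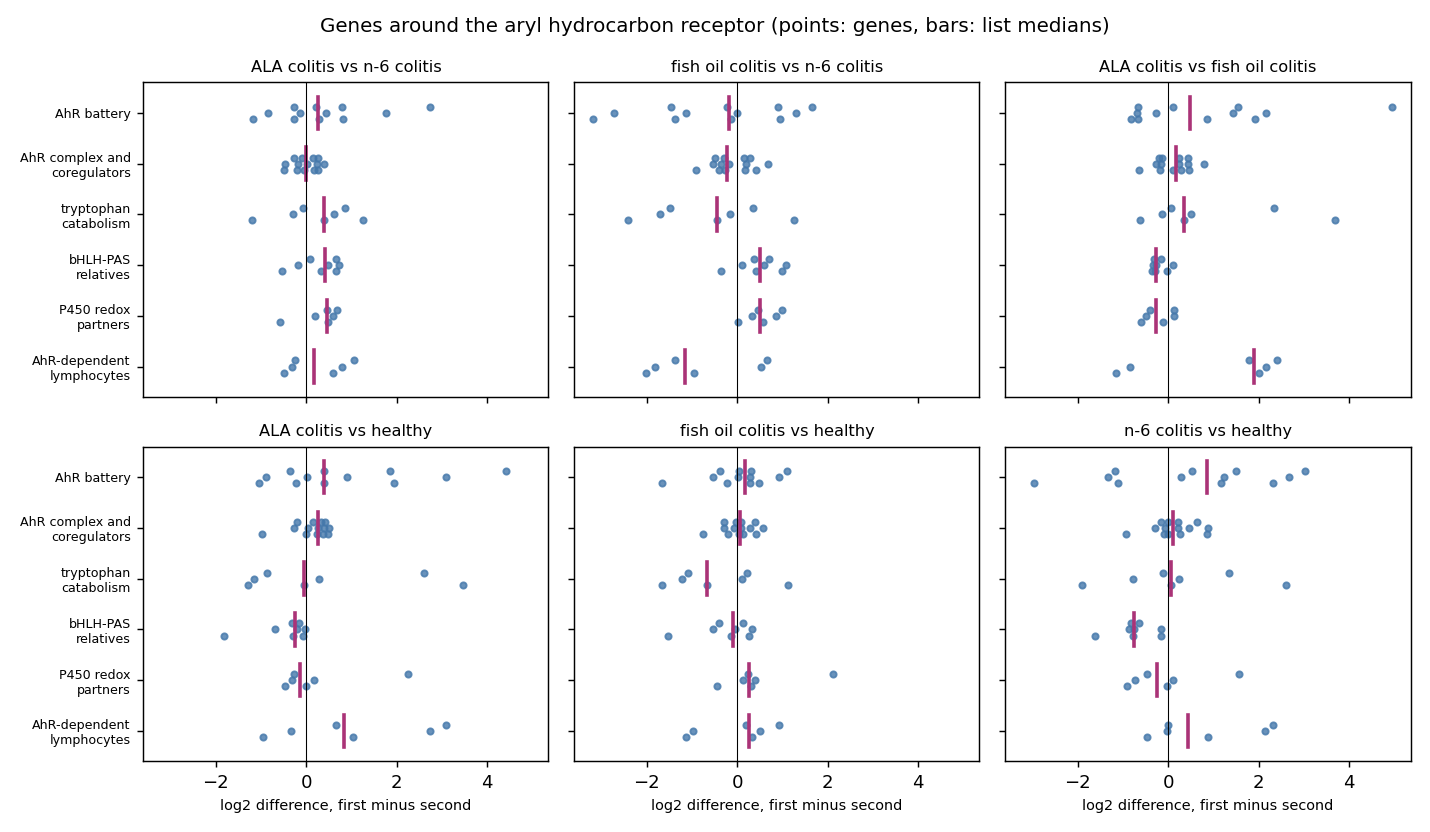
Log2 difference (horizontal axis, first group minus second) of each tested gene of the 6 lists (rows) in the 6 comparisons (panels), with a vertical bar at the median of each list. No point passed the adjusted threshold, and the list medians lie between -1.17 and 1.90, both for the lymphocyte list.

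The first list held 15 other genes that the receptor is known to induce, mostly enzymes of conjugation and oxidation, and 12 were tested. In colitis against healthy colon 8 of the 12 were higher and 4 lower in each group, and the medians were 0.40 in ALA, 0.16 in fish oil and 0.85 in n-6 colitis. Ugt1a6, which attaches glucuronic acid to phenols, differed from healthy by -0.36 in ALA, 0.47 in fish oil and -1.18 in n-6 colitis (SE 0.68). In n-6 colitis its 2 arrays lay apart, at 3.01 and 5.27, against 5.37 and 5.27 in healthy colon.

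Nfe2l2, the regulator of the antioxidant response, differed from healthy by -0.90 in ALA, -0.23 in fish oil and -1.12 in n-6 colitis (SE 0.47). Gsta1, a glutathione transferase, went the other way, with 0.40, 1.1 and 1.24 in the same 3 groups (SE 0.64). None of these passed the test (limma adjusted p between 0.341 and 0.997 for the 3 genes against healthy).

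Aldh3a1, an aldehyde dehydrogenase that is a textbook target of the receptor, had the widest spread in the list and was picked out after its values were seen. Its level was 0.81 and 0.46 in ALA colitis, -4.39 and -4.25 in fish oil colitis and 1.79 and -4.03 in n-6 colitis, against -3.86 and -3.72 in healthy colon. It was high on both ALA arrays and on n-6 replicate 1, and low on the other 5 arrays, so that the n-6 pair held both states. The direction was opposite to that of Cyp1a1 on those 3 arrays. The difference from healthy was 4.42 in ALA colitis (SE 1.58, limma adjusted p = 0.732), -0.53 in fish oil colitis (adjusted p = 0.998) and 2.67 in n-6 colitis (adjusted p = 0.495). Without n-6 replicate 2, Aldh3a1 passed in n-6 against healthy, with a difference of 5.58 (SE 0.33, adjusted p = 0.0194), and in fish oil against n-6, with -6.10 (SE 0.33, adjusted p = 0.0236). There the single n-6 array is assumed to vary like the other groups, so these calls rest on that 1 array.

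The second list was the cytosolic complex and the coregulators of the receptor, with 14 of 15 tested. The chaperones that hold the receptor were bright and differed little: Hsp90ab1 by 0.15 in ALA, -0.29 in fish oil and -0.013 in n-6 colitis against healthy (SE 0.34), and the co-chaperone Ptges3 by 0.032, -0.19 and 0.21 (SE 0.35). Hsp90aa1, the inducible form, differed by 0.36, -0.063 and 0.85 (SE 0.41). The list medians against healthy were 0.25, 0.055 and 0.10, and none of these 3 genes passed.

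The third list held enzymes of tryptophan breakdown, which supply kynurenine and other ligands, with 7 of 12 tested. Ddc, which makes serotonin and tryptamine from their amino acid precursors, was lower than healthy by -1.30 in ALA, -0.68 in fish oil and -1.92 in n-6 colitis (SE 0.63, lowest limma adjusted p = 0.256). All 6 colitis arrays lay below the healthy pair, which stood at 3.05 and 2.85, with the lowest, 0.023, on n-6 replicate 1. Lower without overlap were 18.1%, 20.4% and 21.7% of all genes in ALA, fish oil and n-6 colitis. Tph1, the first enzyme of serotonin synthesis in the gut lining, differed by -0.86, -1.22 and -0.78 with an SE of 0.99, and Kyat1, which turns kynurenine into kynurenic acid, by 0.28, 0.23 and -0.12 (SE 0.45). These did not pass the test. Of the 7 genes, 4 were lower than healthy in ALA, 4 in fish oil and 3 in n-6 colitis. The list medians were -0.047, -0.68 and 0.051.

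The fourth list held relatives of the receptor that share its PAS protein domain, among them clock and hypoxia factors, and 8 of 16 were tested. Against healthy, 8 of 8 were lower in ALA, 5 of 8 in fish oil and 8 of 8 in n-6 colitis, with medians of -0.25, -0.093 and -0.77. Of all 18165 genes, 8525, 9035 and 8807 were lower. Without overlap of the arrays 2, 2 and 4 of the 8 were lower, against 18.1%, 20.4% and 21.7% of all genes. Npas2, a clock factor, differed by -0.33, -0.049 and -0.65 in ALA, fish oil and n-6 colitis (SE 0.56), Per2 by -0.29, -0.40 and -0.78 (SE 0.52) and Hif1a by -0.70, -0.53 and -0.17 (SE 0.55). None passed.

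Partners that feed electrons or heme to P450 enzymes made up the fifth list, and 6 of 6 were tested. Alas1, the first enzyme of heme synthesis, differed from healthy by 0.17 in ALA, 0.30 in fish oil and -0.024 in n-6 colitis (SE 0.51), Cyb5a by -0.016, 0.39 and -0.47 (SE 0.39) and Cyb5r3 by -0.47, 0.13 and 0.11 (SE 0.27). None passed, and the list medians were -0.14, 0.27 and -0.25.

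The sixth list held genes known from lymphocytes that depend on the receptor, with 6 of 11 tested. In whole-tissue RNA their values cannot be assigned to these cells. Ccr6, a chemokine receptor of B cells and of interleukin-17 producing T cells, had levels of 1.07 and 3.01 in ALA colitis, 0.073 and -0.79 in fish oil colitis and 2.07 and 0.83 in n-6 colitis, against -0.61 and -0.77 in healthy colon. ALA and n-6 colitis lay above healthy without overlap, and fish oil colitis did not. The log2 differences from healthy were 2.73 in ALA (SE 0.71, limma adjusted p = 0.687), 0.33 in fish oil (adjusted p = 0.997) and 2.14 in n-6 colitis (adjusted p = 0.259), and ALA against fish oil gave 2.40 (adjusted p = 0.478).

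Summed levels of 6 B cell markers were 4.03 to 18.4 in ALA colitis, 0.87 to 2.13 in fish oil colitis and 1.37 to 15.0 in n-6 colitis, against 1.13 to 1.34 in healthy colon. They followed Ccr6 in part. The sum of n-6 replicate 2, 1.37, lay near healthy and below fish oil replicate 1. The marker Pax5 had its highest mean in fish oil colitis. The part of B cells in the Ccr6 values was not tested. Kit differed from healthy by -0.95, 0.19 and -0.47 in ALA, fish oil and n-6 colitis (SE 0.45), and Gpr15, which guides T cells to the colon, by -0.33, 0.51 and -0.011 (SE 0.43). Summed levels of 5 markers shared by leukocytes were 63.2 to 141 in ALA colitis, 31.5 to 39.1 in fish oil colitis and 76.0 to 171 in n-6 colitis, against 40.2 to 41.2 in healthy colon. These markers were thus above healthy in ALA and n-6 colitis and below it in fish oil colitis. Summed levels of 8 macrophage markers were above healthy in all 3 groups, at 30.1 to 39.5 in ALA colitis, 25.4 to 34.3 in fish oil colitis and 42.0 to 42.4 in n-6 colitis, against 16.1 to 19.7 in healthy colon. So were those of 5 neutrophil markers, at 5.43 to 11.46, 4.41 to 5.25 and 5.82 to 10.4 in the same 3 groups, against 3.85 to 3.99 in healthy colon. In the same 3 groups Cyp1a1 and Ahrr were lower, and the part of these cells in those levels was not tested. Summed levels of 5 red cell markers were 14.2 to 14.7 in ALA colitis, 10.1 on both fish oil arrays and 177 to 267 in n-6 colitis, against 6.97 to 7.91 in healthy colon.

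The genes most like Cyp1a1 over the 8 arrays were found by Pearson's r among 13176 genes with a symbol, as a description of a pattern in which the 2 healthy arrays stand apart. They were Cyp2c23, an arachidonic acid epoxygenase known from rat kidney (r = 0.967), Mtfmt, a formyltransferase for mitochondrial protein synthesis (r = 0.961), Slc6a20a, an imino acid transporter (r = 0.961), Net1 (r = 0.946), and Cnmd, chondromodulin (r = 0.942). Each was higher on both healthy arrays than on every colitis array. Cyp2c23 was not well above background on any colitis array, with levels of -5.17 and -5.99 in ALA, -5.68 and -5.48 in fish oil and -6.54 and -6.59 in n-6 colitis, against -3.22 and -4.01 in healthy colon. Slc6a20a had levels of -3.41 and -3.82 in ALA, -3.81 and -3.32 in fish oil and -5.02 and -4.34 in n-6 colitis, against -2.00 and -1.72 in healthy colon. Mtfmt was the brightest and moved least, between -0.10 and 0.058 on the colitis arrays, against 0.33 and 0.39 on the healthy arrays. These genes share with Cyp1a1 the split between healthy and colitis arrays, and not the size of it. Among the colitis arrays Cyp2c23 had the same order as Cyp1a1 except within the n-6 pair. Neither gene was well above background there, so nothing is read from that order.

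**Figure D5:**
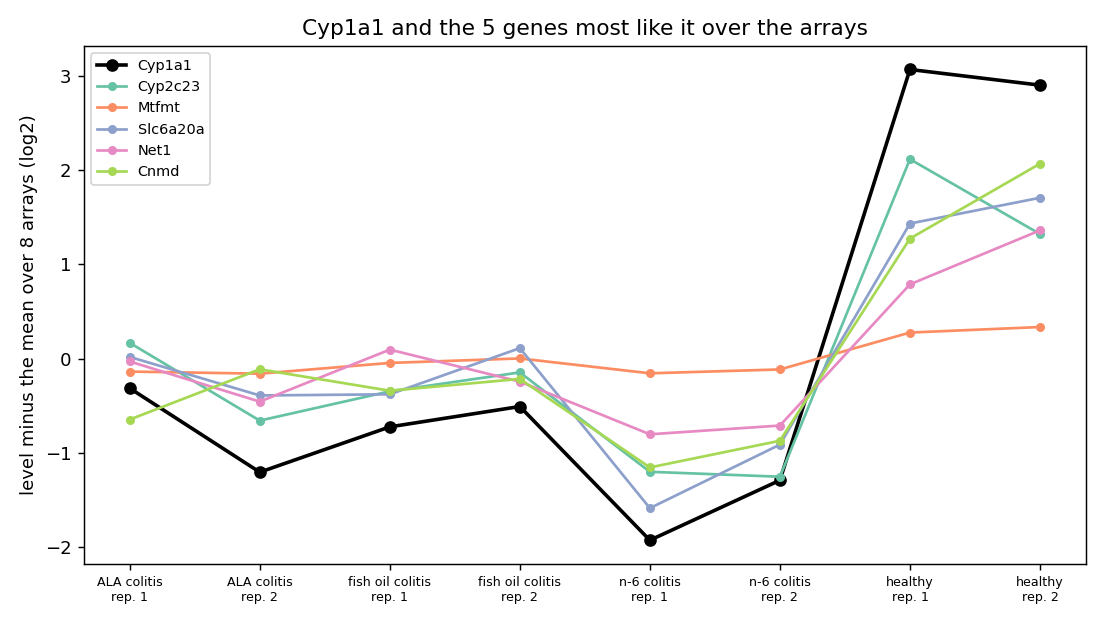
Log2 level minus the gene's own mean over 8 arrays (vertical axis) for Cyp1a1 and the 5 genes with the highest Pearson's r to it, on each array from ALA colitis to healthy. All 6 genes are highest on the 2 healthy arrays, and Cyp1a1 has the widest range.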

How the data were processed

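The scanner files hold spot intensity values made with Agilent Feature Extraction 11.5.1.1, background-subtracted and not scaled between arrays, per the file headers. The deposited value table holds log2 values, whose column medians ran from -3.18 to -2.89. Each array of it had a 75th percentile near 0 and correlated with the scanner signal, across symbols, at 0.988 to 0.992. The steps by which the authors made it are not given in the sources used here.

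Control and outlier spots were left out, and log2 processed signals were averaged over the spots of a probe. These averages were set relative to the 75th percentile of each array. Probes entered where both arrays of any group had them well above background (20793 of 30354, after 13 with every spot marked as an outlier on an array). Each gene was represented by its brightest probe, which gave 18165 genes, of which 13177 had a symbol. The 6 comparisons were fitted with limma 3.58.1 (R 4.3.3) over all 8 arrays (4 residual and 3.02 prior degrees of freedom), with Benjamini-Hochberg adjustment over all genes and a threshold of 0.05. The fit was tested on simulated data. Probes were named through a RefSeq gene table (GRCr8, names only), by accession for 18350 probes, by another accession for 454, by symbol for 2533 and by synonym for 407, and 8610 kept the file's name.

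The members, lists and tests were chosen with earlier results of these data known. Named were all 7 members, up to 4 genes past the threshold or else the 3 brightest of each pathway list, up to 2 of the brightest genes of a marker list, and the 5 genes most like Cyp1a1. Cyp1b1, due the same search, failed the filter. Alternatives were normexp background, median or quantile scaling, other filters, the mean of probes, the deposited table, a trend with a robust prior, fits of 2 groups alone, a replicate block and leaving out each array.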

Additional observations from a re-analysis of the deposited data

How the results depend on the processing

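Under 18 alternatives, 0 of the 4 tested members were called in any of the 3 diet comparisons. Cyp1a1 stayed below healthy in all 3 colitis groups. Normexp background correction with an offset of 50 by construction shrinks dim signals. With it the Cyp1a1 log2 difference was -1.03 in ALA, -0.58 in fish oil and -1.12 in n-6 colitis. In the deposited table that of fish oil was -3.10. There Cyp1a1 stood at -4.30 on fish oil replicate 2, against -5.44 here, where an outlier spot was left out. The part of that spot was not tested. Leaving out 1 array gave Cyp1a1 differences of -4.19 to -3.30 in ALA, -3.71 to -3.50 in fish oil and -4.92 to -4.28 in n-6 colitis. The filter for probes well above background on all 8 arrays removed Cyp1a1 and Ahr, so it gives no value for them. Pathway genes called ranged from 0 to 1 in fish oil against n-6 colitis, and from 0 to 1 in n-6 colitis against healthy, when 1 array was left out, the 1 being Aldh3a1 without n-6 replicate 2, and were 0 otherwise. Signs turned for small differences. Normexp turned Ahr against healthy to 0.060 in ALA and 0.47 in fish oil. Median centring turned Ahrr in ALA against n-6 to -0.090 and Tiparp in n-6 against healthy to 0.043. Leaving out 1 array gave ranges across 0 for Ahrr in ALA against n-6 (-0.36 to 0.58), for Tiparp in ALA against n-6 (-0.54 to 0.20), fish oil against n-6 (-0.44 to 0.30), ALA against fish oil (-0.26 to 0.068) and n-6 against healthy (-0.47 to 0.27), for Cyp1a1 in ALA against fish oil (-0.59 to 0.30) and for Ahr in fish oil against healthy (-0.32 to 0.15). Ahrr stayed below healthy in all 3 colitis groups under the 18 alternatives. Genes called among all were 5 in ALA against n-6 (0 to 6 over the alternatives), 7 in fish oil against n-6 (0 to 8) and 7 in n-6 against healthy (0 to 69, the most with normexp). They were 0 in ALA against fish oil (0 to 1), ALA against healthy (0 to 1) and fish oil against healthy (0 to 2). Same-numbered arrays deviated together for some pairs of groups only (r from -0.17 to 0.47), so the numbers were not taken to pair the samples. With 2 arrays a group, these correlations cannot show that no pairing exists. With the replicate block 0 members and 0 pathway genes were called, and of all genes 0 were called in ALA against n-6 colitis, 5 in fish oil against n-6 colitis and 13 in n-6 colitis against healthy.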
